A study of Mus musculus with 72 samples.

Results

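Gene expression in the hippocampus of dams 3 days after birth (PP3) was compared with that in the hippocampus of virgin females. The libraries were chosen by the region and stage in their labels and by nothing measured. They are 6 of the 72 libraries of the series: HP347, HP353 and HP357 from the PP3 dams, and HVirB, HVirM and HVirO from the virgins. The series holds 4 brain regions (hypothalamus, hippocampus, neocortex and cerebellum) of 18 mice at 6 stages, with 3 mice at each stage, and each mouse gave all 4 regions. Of the remaining stages, PC14 and PC16 fall in pregnancy, and PP1 and PP10 are days 1 and 10 postpartum. Every mouse was a C57BL/6J female with no transgene, mutation or drug in the labels. The PP3 dams had no litter before, were mated with C57BL/6J males in trios, and nursed a litter when the tissue was taken. The virgins were of like age and were taken without regard to the day of the estrous cycle, so 1 virgin may be at another cycle stage than the next. The time of day of collection and the age in weeks at collection are not given in the sources used here. The brains were not perfused, so blood is part of the tissue.

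The hippocampus holds the pyramidal neurons of fields CA1 to CA3 and the granule cells of the dentate gyrus, and serves spatial and contextual memory. Early-response genes are transcribed within minutes of synaptic input or of a growth factor signal, before any new protein is made, and their transcripts are short-lived. Calcium entry and the ERK kinase cascade activate transcription factors already bound at these genes, among them CREB and serum response factor. The first products are transcription factors of the Fos, Egr and Nr4a families and effectors such as Arc, which acts at the synapse, and phosphatases of the Dusp family then damp the ERK signal.

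The count totals of the 6 libraries were 11537125 to 14019498, and the share from mitochondrial genes was 6.05% to 6.93% over the 18 hippocampus libraries. Levels are given as CPM, counts scaled to a common library total. The CPM of single genes and of the choroid plexus sum include TMM factors, and the other list sums do not. The 8 markers of CA1 summed to 820.3, 853 and 858 CPM in HP347, HP353 and HP357, against 759.9, 809 and 804 CPM in HVirB, HVirM and HVirO. The 14 listed dentate granule cell markers summed to 1118, 1064 and 1102 CPM in PP3, against 1248, 1108 and 1147 CPM in virgins. Of the 13 that were tested, 10 had negative fold changes and 6 were at an unadjusted p under 0.05, beside 1994 of all 13540 tested genes. Transcripts of the choroid plexus, a secretory tissue that lies beside the hippocampus in the ventricle, were present in unequal amounts. The 29 choroid plexus genes that entered the fit described below summed to 8814, 427 and 4925 CPM in the same PP3 libraries, against 1456, 2470 and 796 CPM in the virgins. Ttr, the transthyretin gene that defines this epithelium, was at 5231, 54.2 and 2747 CPM in PP3, against 669.6, 1302 and 312 CPM in virgins. HP353 held the least choroid plexus RNA of the 6 libraries, and the other PP3 libraries held the most. All 20 choroid plexus genes tested had positive fold changes, with a median of 1.49 on the log2 scale, and 0 were called. Without HP353 6 of them were called higher, with no FPKM rule 4, by edgeR's exact test 1, and with their own level as a covariate 3 higher and 1 lower. The first principal component of the 18 hippocampus libraries took 40.8% of the variance and placed HP353 at 27.9, with the virgins at 9.14 to 24.5 and the other PP3 libraries at -14.2 and -3.37. The part of choroid plexus in the differences below was not tested beyond a fit with its level as a covariate, whose counts are given where they bear.

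Of 13540 genes tested, 121 were called at an adjusted p under 0.05 (0.894%), of which 100 were lower in PP3 (0.739%) and 21 higher (0.155%). A gene was tested if its FPKM, a level per transcript length and library size, was at least 1 in all 3 mice of either group. Counts were tested throughout by the quasi-likelihood method of edgeR, with Benjamini-Hochberg adjustment over all tested genes, and this is called the QL test here. The lower genes had a median log2 fold change of -0.37, over a range of -3.13 to -0.17, and 11 of them were more than 2-fold lower. The higher genes had a median of 0.32 over 0.14 to 0.77, and 0 were more than 2-fold higher. In all 121 genes the 3 PP3 libraries lay apart from the 3 virgin libraries. Over all tested genes the PP3 libraries all lay below the virgins in 8.91% and all above in 7.31%. The median log2 fold change over all tested genes was 0.0040. At an unadjusted p under 0.05 there were 1994 genes.

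The number of calls rested on single libraries. It was 47, 411 and 19 without HP347, HP353 and HP357, and 38 without HVirB and 28 without HVirO, and without HVirM 241 genes were lower and 106 higher. Of the 121 genes, 110 were among the 411 called without HP353, and 19 were the 19 called without HP357. The higher genes numbered 181 without HP353, 1 without HVirO and 0 without HP357. HP353 was the lowest PP3 library in 13 of the 21 higher genes, against 36.7% of all tested genes, and HVirM was the lowest virgin in 70 of the 100 lower genes, against 34.4%. With the choroid plexus level as a covariate 221 genes were called, and 120 of the 121 were among them. The call was lost by 93 of the 121 in a QL test on the 6 libraries alone and by 98 with limma on log2(FPKM + 1). With 9 other tools or settings and each of the 18 hippocampus libraries left out in turn, 15 of the 121 genes were called every time. The 14 of them with a symbol were Scarna2, Cdr1, Egr2, Dnajb5, Nin, Egr4, Fos, Apold1, Sik1, Dusp5, Junb, Egr1, Rasl11b and Npas4, all lower in PP3.

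**Figure D1:**
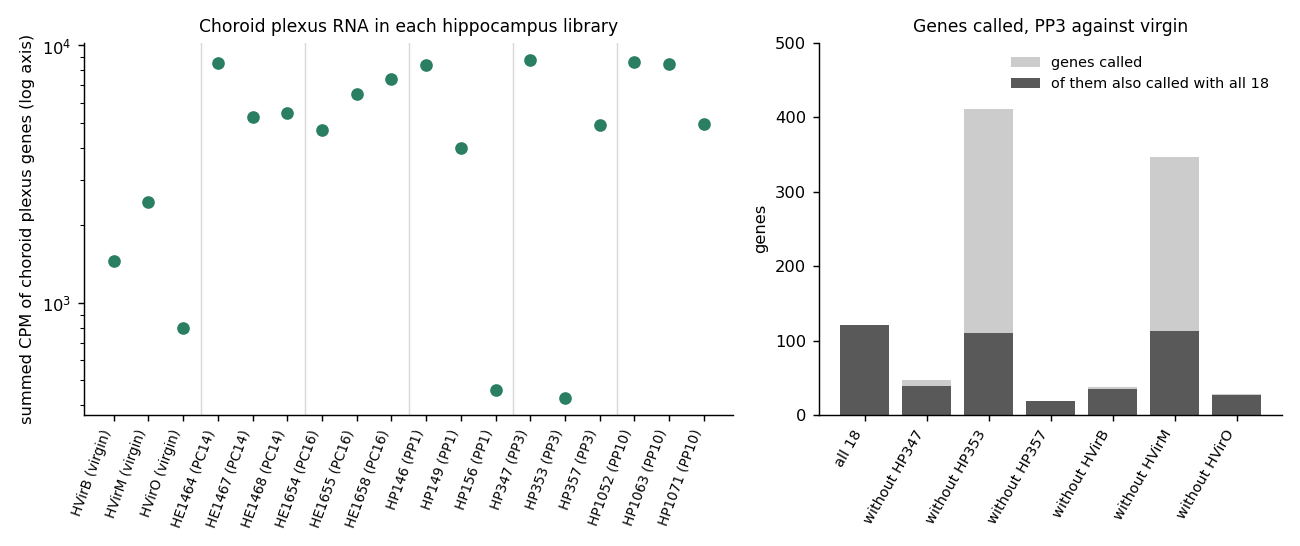
Left, the summed CPM of 29 choroid plexus genes in each of the 18 hippocampus libraries by stage, on a log axis, where HP353 (427 CPM) is the lowest and HP347 (8814 CPM) the highest. Right, bars of the number of genes called between PP3 and virgin with all 18 libraries (121) and with each PP3 or virgin library left out, from 19 to 411, with the dark part of a bar showing genes that are also called with all 18.

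Early-response transcription factors had the lowest median fold change of the 32 gene lists. Of 25 listed, 23 were tested, 10 were called lower and 0 higher. The fold changes were negative for 21 of the 23, and their median was -0.52, beside 0.0040 over all tested genes. Those called were Egr2, Fos, Npas4, Nr4a1, Egr4, Junb, Egr1, Fosb, Ier2 and Klf10.

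Egr2, a zinc finger factor of the early growth response family, had the largest fold change of all called genes. It met the FPKM rule only through the virgins, with a mean FPKM of 2.97 there and 0.394 in PP3. Its PP3 level is low, so the size of the fold is loosely fixed. It was at 1.34, 1.15 and 0.950 CPM in HP347, HP353 and HP357, against 12.5, 6.53 and 11.4 CPM in HVirB, HVirM and HVirO. Every virgin was above every dam, and HVirM was the lowest virgin. The log2 fold change was -3.13 (SE 0.36, QL adjusted p = 0.0002), and -1.51 on the log2(FPKM + 1) scale, which shrinks changes of low genes. Egr4 was at 31.3, 30.8 and 25.6 CPM in PP3, against 67.8, 50.3 and 70.03 CPM in virgins, with a log2 fold change of -1.10 (SE 0.15, QL adjusted p = 0.00175). Egr1, the most studied member of this family in learning, was at 126, 105 and 108 CPM in PP3, against 253, 208 and 258 CPM in virgins. Its log2 fold change was -1.08 (SE 0.17, QL adjusted p = 0.00464), and HVirM was again the lowest virgin of both genes. Egr3, the remaining member, had a log2 fold change of -0.20 and did not pass (QL adjusted p = 0.171). Nab2, a co-repressor that binds Egr proteins and is itself induced by them, was outside the lists and was picked after its values were seen. It was lower at 43.2, 53.1 and 47.1 CPM in PP3, against 59.3, 59.8 and 66.1 CPM in virgins (log2 fold change -0.37, QL adjusted p = 0.0288, and 0.124, 0.127, 0.0695 and 0.138 without HP347, HP357, HVirB and HVirO).

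Fos, which pairs with Jun proteins to form the AP-1 factor, was at 6.90, 6.02 and 6.33 CPM in HP347, HP353 and HP357, against 30.2, 29.3 and 33.4 CPM in HVirB, HVirM and HVirO. The 3 dams were within 1 CPM of each other and far below the virgins, and the log2 fold change was -2.26 (SE 0.33, QL adjusted p = 0.0019). Fosb was at 12.1, 9.81 and 11.1 CPM in PP3, against 23.00, 15.8 and 21.5 CPM in virgins, with HVirM lowest of the virgins. Its log2 fold change was -0.87 (SE 0.19, QL adjusted p = 0.0341). Junb, a partner of Fos, was at 58.99, 67.6 and 61.8 CPM in PP3, against 133, 132 and 138 CPM in virgins, with a log2 fold change of -1.10 (SE 0.17, QL adjusted p = 0.00464). Junb overlaps Prdx2 on the opposite strand, and the kit did not mark strand, so reads in the overlap cannot be assigned to 1 of the genes. The other AP-1 members of the list did not pass: Jun was at -0.02, Jund at 0.09, Fosl1 at -0.18 and Fosl2 at -0.19 on the log2 scale. The QL adjusted p of Fosb was 0.138 without HP357, 0.180 without HVirB, 0.138 without HVirO and 0.0798 without HP347.

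Npas4, a factor induced by calcium entry in neurons and not by growth factors, was at 5.71, 7.17 and 8.94 CPM in PP3, against 23.5, 20.2 and 18.4 CPM in virgins. All dams were below 9 CPM and all virgins above 18 CPM, with a log2 fold change of -1.51 (SE 0.26, QL adjusted p = 0.00774). Nr4a1, an orphan nuclear receptor induced by the same signals as Fos, was at 46.97, 58.9 and 47.2 CPM in PP3, against 129, 114 and 126 CPM in virgins. Its log2 fold change was -1.27 (SE 0.21, QL adjusted p = 0.00505, 0.0513 without HP357). Its relatives Nr4a3 (-0.37, QL adjusted p = 0.0647) and Nr4a2 (-0.11, QL adjusted p = 0.671) did not pass. Ier2 was at 6.68, 7.17 and 8.07 CPM in PP3, against 13.1, 11.7 and 11.8 CPM in virgins (log2 fold change -0.75, QL adjusted p = 0.0487), and Klf10 at 18.8, 25.6 and 20.97 CPM, against 30.3, 34.9 and 37.97 CPM (-0.66, QL adjusted p = 0.0391). Klf10 is a zinc finger factor induced by growth factors of the TGF-beta family. The calls of Ier2 and Klf10 were each lost without any of HP347, HP357, HVirB and HVirO, with adjusted p between 0.0683 and 0.189, and Klf10 was at 0.0501 without HVirM. The number of early-response factors called lower was 6 without HP357, 7 without each of HP347, HVirB and HVirO, 10 without HVirM and 11 without HP353.

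**Figure D2:**
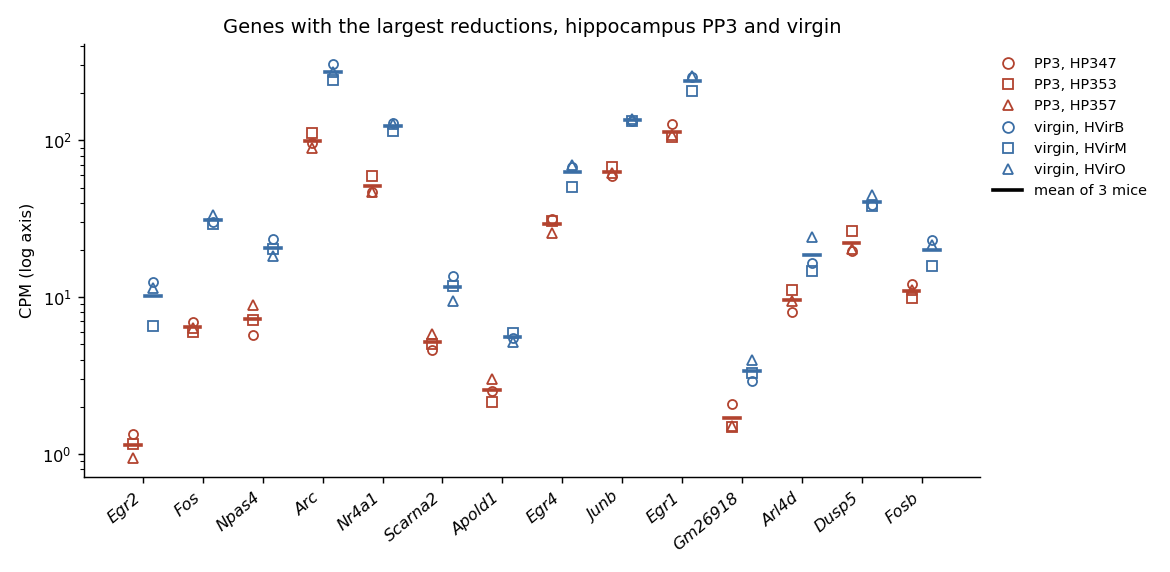
CPM of the 14 called genes with a symbol and the largest reductions, on a log axis, with the PP3 libraries (left) and the virgin libraries (right) as points and the mean of 3 mice as a bar. In each gene the PP3 points lie below the virgin points, with Egr2 at 1.34, 1.15 and 0.950 CPM in PP3 and 12.5, 6.53 and 11.4 CPM in virgins.

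Activity-regulated effectors, the proteins whose genes are induced alongside these factors, were reduced in part. Of 26 listed, 24 were tested, 5 were called lower (Arc, Sik1, Gadd45b, Tiparp and Gadd45g) and 0 higher, and 21 were negative, with a median of -0.25. Arc, which forms capsid-like particles and removes AMPA receptors from synapses, was at 95.9, 112 and 88.9 CPM in PP3, against 308, 241 and 272 CPM in virgins. The highest dam was far below the lowest virgin. Its log2 fold change was -1.47 (SE 0.24, QL adjusted p = 0.00523, 0.0577 without HP357). Sik1, a kinase induced by CREB that limits its coactivators, was at 14.5, 11.5 and 13.4 CPM in PP3, against 19.6, 25.8 and 25.7 CPM in virgins, with HVirB lowest of the virgins (log2 fold change -0.84, SE 0.13, QL adjusted p = 0.00377). Gadd45b and Gadd45g, stress and activity responsive regulators of MAP kinase signalling and DNA demethylation, were at -0.63 and -0.48 on the log2 scale (QL adjusted p = 0.0294 and 0.0288). Tiparp, an ADP-ribosyltransferase, was at -0.54 (QL adjusted p = 0.0288). The calls of both Gadd45 genes were lost without HP347 (adjusted p 0.110 for Gadd45g and 0.115 for Gadd45b), HP357, HVirB or HVirO, and that of Tiparp without HP357 (0.113), HVirB (0.145) or HVirO (0.116). Listed members that did not pass included Homer1 (-0.07), Bdnf (-0.17), Nptx2 (-0.23) and Ccn1 (-0.85, QL adjusted p = 0.0579). The number of effectors called lower was 8 without HVirM, 7 without HP353, 3 without HP347, 2 without HVirB, 2 without HVirO and 1 without HP357.

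Of 14 tested feedback regulators of ERK 2 were called, both lower, and the list median was -0.081. The number called lower was 4 without HVirM, 3 without HP353, and 1 without each of HP357, HVirB and HVirO, and it was 4 by the DESeq2 Wald test and 1 by limma on log2(FPKM + 1). Dusp5, a nuclear phosphatase that removes activating phosphates from ERK, was at 19.6, 26.5 and 20.2 CPM in PP3, against 38.5, 37.9 and 45.04 CPM in virgins (log2 fold change -0.88, SE 0.14, QL adjusted p = 0.00394), and it overlaps an antisense gene. Dusp6, its cytoplasmic relative, was at 60.03, 52.2 and 49.5 CPM in PP3, against 86.2, 73.9 and 83.5 CPM in virgins (log2 fold change -0.59, QL adjusted p = 0.0109). The call of Dusp6 was lost without HP357 (0.0873), HVirB (0.0692) and HVirO (0.0536). Dusp1 (-0.60, QL adjusted p = 0.0779) and Dusp4 (-0.29, QL adjusted p = 0.124) did not pass, and the Spry and Spred inhibitors were between -0.10 and 0.02. Apold1, an endothelial gene with early-response behaviour in rodents, was outside the lists but among the most reduced. It was at 2.52, 2.14 and 3.01 CPM in PP3, against 5.48, 5.95 and 5.21 CPM in virgins (log2 fold change -1.11, SE 0.17, QL adjusted p = 0.00338), with -0.52 on the log2(FPKM + 1) scale. Apold1 met the FPKM rule only through the virgins, with a mean FPKM of 1.35 there and 0.635 in PP3.

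Clock and glucocorticoid response genes shared 1 reduced member, Per1. Per1, a repressor of the circadian clock that glucocorticoids and activity also induce, was at 65.9, 73.04 and 66.9 CPM in PP3, against 90.6, 97.3 and 117 CPM in virgins (log2 fold change -0.56, SE 0.093, QL adjusted p = 0.00509, 0.0513 without HP357). HVirO was the highest virgin, and every virgin was above every dam. Bhlhe40, a repressor of clock genes, was the other clock gene called of 21 (log2 fold change -0.35, QL adjusted p = 0.0441, and between 0.149 and 0.188 without HP347, HP357, HVirB or HVirO). The core clock genes did not pass, with Arntl at -0.15, Clock at -0.13, Per2 at -0.12 and Nr1d1 at -0.07 on the log2 scale. Ddit4, an inhibitor of mTOR that glucocorticoids induce, was the other call of 20 glucocorticoid-responsive genes (log2 fold change -0.45, QL adjusted p = 0.0339, and 0.140, 0.167 and 0.156 without HP347, HP357 and HVirO). Fkbp5 (0.02) and Tsc22d3 (-0.05), standard reporters of the glucocorticoid receptor, had QL adjusted p of 0.924 and 0.894. Of the 20 glucocorticoid-responsive genes, 14 were negative, with a median of -0.099 and a highest value of 1.13. In the QL test 12 of the 20 were at an unadjusted p under 0.05, beside 1994 of all 13540 tested genes. The DESeq2 Wald test called 5 of the 20.

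The promoters of called genes were read for 4 motifs known from activity-regulated and clock genes. The windows are 300 bases, 250 before the annotated start and 50 after it, from RefSeq on GRCm38.p6, and 89 of the 121 called genes had at least 1. The CArG box, at which serum response factor binds, was in 7.14% of 98 windows of genes called lower, in 0% of 27 windows of genes called higher, in 1.27% of the 12943 windows of tested genes and in 1.63% of all 32851 windows. Its 7 windows belonged to 4 genes, since several windows of Egr2 overlap, and counted by gene it was in 5.63% of the genes called lower that had a window, against 1.53% of tested genes. The E-box CACGTG was in 14.3%, 14.8%, 9.87% and 7.15% of the same windows, and the cAMP response element TGACGTCA in 2.04%, 0%, 2.99% and 1.79%. Of the 7 early-response factors called lower that had a window, 1 held a CArG box (Egr2) and 0 held the cAMP response element. The D-box TTATGTAA was in 0% of the windows of called genes, 0.51% of those of tested genes and 0.938% of all. Both strands were searched, each motif was counted on its own, and a match says only that these letters stand in the window. The windows below hold a motif in the called genes of lowest p, with the motif in capitals, 5′ to 3′ on the gene's strand. In Egr2 (chr10:67537316-67537615, an alternative start) the CArG box begins 72 bases before the start, and a further Egr2 window holds an E-box 27 bases before its start. In Dusp5 (chr19:53528895-53529194) 2 CArG boxes abut, 82 and 72 bases before the start. In Per1 (chr11:69098699-69098998, 1 of 2 windows, inside the gene annotated from 69095217) the E-box lies 166 bases before the start of that window.
Egr2: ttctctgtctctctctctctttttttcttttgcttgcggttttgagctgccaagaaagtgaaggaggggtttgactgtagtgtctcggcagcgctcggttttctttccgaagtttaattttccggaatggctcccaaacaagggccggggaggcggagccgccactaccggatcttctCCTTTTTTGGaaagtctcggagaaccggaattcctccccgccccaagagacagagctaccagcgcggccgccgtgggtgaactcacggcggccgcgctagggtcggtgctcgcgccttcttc
Dusp5: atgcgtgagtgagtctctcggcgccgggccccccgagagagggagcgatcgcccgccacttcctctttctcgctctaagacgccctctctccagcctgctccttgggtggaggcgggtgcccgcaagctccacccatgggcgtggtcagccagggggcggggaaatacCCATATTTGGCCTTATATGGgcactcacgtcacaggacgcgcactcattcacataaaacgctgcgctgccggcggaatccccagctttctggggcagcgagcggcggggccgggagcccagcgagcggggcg
Per1: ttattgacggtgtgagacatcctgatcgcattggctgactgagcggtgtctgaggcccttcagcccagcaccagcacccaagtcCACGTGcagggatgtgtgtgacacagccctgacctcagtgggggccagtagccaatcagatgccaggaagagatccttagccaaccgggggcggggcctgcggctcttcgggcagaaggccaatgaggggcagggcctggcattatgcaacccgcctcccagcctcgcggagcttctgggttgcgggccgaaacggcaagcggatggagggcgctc

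The smallest p values of all belonged to Scarna2 and Cdr1, outside these groups. Scarna2, a small Cajal body RNA that guides modification of spliceosomal RNA, was at 4.60, 5.03 and 5.86 CPM in HP347, HP353 and HP357, against 13.6, 11.7 and 9.45 CPM in HVirB, HVirM and HVirO. No dam reached 6 CPM and no virgin fell below 9 CPM. The log2 fold change was -1.17 (SE 0.13, QL adjusted p = 0.000185). Cdr1, a gene at chrX:61184005-61185558 on the minus strand of GRCm38 whose locus is known for an abundant circular RNA on the other strand, was at 40.3, 45.2 and 45.3 CPM in PP3, against 86.00, 70.5 and 80.3 CPM in virgins (log2 fold change -0.86, SE 0.10, QL adjusted p = 0.000185). Reads from the strands of this locus cannot be told apart in these libraries. The annotated gene opposite Cdr1, C230004F18Rik, was at 3.93, 4.37 and 4.59 CPM in PP3, against 5.99, 6.28 and 7.24 CPM in virgins, and did not pass (log2 fold change -0.59, QL adjusted p = 0.0565). Malat1, a long noncoding RNA of nuclear speckles, was at 1939.8, 2701 and 2198 CPM in PP3, against 3978, 3115 and 3599 CPM in virgins. HP353 was the highest dam and HVirM the lowest virgin. Its log2 fold change was -0.64 (SE 0.11, QL adjusted p = 0.00505, 0.0513 without HP357). Malat1 lost its call in the QL test on the 6 libraries (adjusted p 0.0753) and with limma on log2(FPKM + 1), where its value was -0.35 (adjusted p 0.262). Malat1 was picked after its values were seen, for the size of its level. In the paper, mRNA was isolated from total RNA before the libraries were made. How far that step retained Scarna2, Malat1 or the circular RNA of the Cdr1 locus was not tested. Their CPM may therefore depend on capture as well as on level.

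Several further reduced genes have roles in neurons. Rbm3, a cold-inducible RNA-binding protein that protects synapses in mice, was the 1 called of 2 genes of its list, at 45.7, 45.7 and 41.1 CPM in PP3, against 62.3, 53.1 and 55.8 CPM in virgins (log2 fold change -0.37, SE 0.06, QL adjusted p = 0.00505, 0.0513 without HP357 and 0.101 in the QL test on the 6 libraries). Cirbp, the other, had a log2 fold change of 0.02. Rbm3 overlaps the antisense gene Rbm3os. Prox1, the transcription factor that sets granule cell identity, was at 79.99, 86.6 and 83.3 CPM in PP3, against 124, 98.1 and 110.3 CPM in virgins (log2 fold change -0.41, QL adjusted p = 0.0107), and was the only call of 13 dentate granule cell markers. It lost its call without HP347 (0.0553), HP357 (0.0649) and HVirB (0.0710), and overlaps Prox1os. The other dentate markers named by the list order, Dsp, C1ql2 and C1ql3, were at -0.33, -0.08 and -0.08 with no call. Grin2a, which encodes an NMDA receptor subunit, was the 1 call of 15 glutamate receptor genes, at 39.5, 33.5 and 38.1 CPM in PP3, against 54.2, 44.6 and 50.2 CPM in virgins (log2 fold change -0.42, QL adjusted p = 0.0416, and 0.0672 to 0.207 when any PP3 or virgin library but HVirM was left out). Dnajb5, a DnaJ co-chaperone, was at 158, 182 and 159.9 CPM in PP3, against 242, 216 and 239.7 CPM in virgins (log2 fold change -0.48, QL adjusted p = 0.000985), and was picked after its values were seen, as was the presynaptic active zone gene Pclo (log2 fold change -0.27, QL adjusted p = 0.00505). Both kept their call without any 1 of the PP3 or virgin libraries. With limma on log2(FPKM + 1) Dnajb5 was called too, but Pclo was at -0.01 (adjusted p 0.933).

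The further reduced genes named here had small fold changes and were picked after their values were seen. Hnrnpu, a nuclear RNA-binding protein that organizes chromatin, was at 368, 334 and 352.5 CPM in PP3, against 443, 403 and 442 CPM in virgins (log2 fold change -0.29, SE 0.041, QL adjusted p = 0.00175). Auts2, a neurodevelopmental gene whose protein binds Polycomb complexes, was at 122, 119.5 and 118 CPM in PP3, against 141, 139.6 and 142 CPM in virgins (log2 fold change -0.23, QL adjusted p = 0.00464). Both kept their call without any 1 PP3 or virgin library, with adjusted p of at most 0.0175 for Hnrnpu and 0.0469 for Auts2. Hnrnpu was at 0.0753 in the QL test on the 6 libraries, and Auts2 at -0.17 with limma on log2(FPKM + 1) (adjusted p 0.149). The histone methyltransferase genes Kmt2a (-0.23) and Ash1l (-0.21), the DNA methyltransferase gene Dnmt3a (-0.21), the DNA demethylation gene Tet3 (-0.26) and the chromatin remodeller gene Atrx (-0.22) were called lower with log2 fold changes near the weakest of the 100. Neurod2, a factor of excitatory neurons, was at 188, 226 and 189 CPM in PP3, against 279, 248 and 246 CPM in virgins (log2 fold change -0.36, QL adjusted p = 0.0173). Bcl11b (-0.23) and Zbtb20 (-0.35), factors that shape dentate and pyramidal neurons in mice, were called lower too. None of Kmt2a, Ash1l, Dnmt3a, Tet3, Atrx, Neurod2, Bcl11b and Zbtb20 kept its call without HP347, HP357 or HVirB, where the adjusted p of these 8 was 0.0723 to 0.243. Slc16a1 (-0.37) and Slc16a7 (-0.65), transporters that carry lactate and ketone bodies, were called lower, and both lost the call without HP357 (0.0973 and 0.171) and HVirO (0.0758 and 0.189), Slc16a7 also without HP347 (0.111), HP353 (0.0577) and HVirB (0.188), and with the DESeq2 Wald test (0.0674).

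The 21 genes higher in PP3 changed by less than 2-fold, and none of them kept its call without HP357 (QL adjusted p 0.0513 to 0.194) or without HVirO (0.0536 to 0.180). Fgfr3, a growth factor receptor of astrocytes, had the smallest p, with 109.7, 109 and 111 CPM in PP3, against 84.4, 95.1 and 86.3 CPM in virgins (log2 fold change 0.31, SE 0.052, QL adjusted p = 0.00616). The dams differed by less than 2 CPM, and HVirM was the highest virgin. It was the 1 call among 18 astrocyte markers, of which Aqp4 (-0.16), Gfap (-0.12) and Aldh1l1 (0.02) did not pass. Notch4, a receptor of endothelial cells, was at 11.1, 10.7 and 11.6 CPM in PP3, against 7.08, 7.27 and 6.80 CPM in virgins (log2 fold change 0.66, QL adjusted p = 0.00804). Sox18, an endothelial transcription factor, was at 17.5, 16.7 and 16.5 CPM in PP3, against 13.2, 10.2 and 7.15 CPM in virgins (log2 fold change 0.72, QL adjusted p = 0.0339). These 2 were outside the endothelial list, in which 0 of 21 were called, 16 were positive and the median was 0.15. Agt, the angiotensinogen gene that brain astrocytes express, was at 35.7, 38.3 and 35.5 CPM in PP3, against 22.4, 32.6 and 23.9 CPM in virgins (log2 fold change 0.47, QL adjusted p = 0.0373), with HVirM nearest to the dams. Sparc, a matrix protein that opposes Sparcl1 at synapses, was at 331, 309 and 314 CPM in PP3, against 234, 294 and 248 CPM in virgins (log2 fold change 0.30, QL adjusted p = 0.0324). Adamts4, a protease of perineuronal net proteoglycans, was the other call of that list of 14 and was lower (log2 fold change -0.43, QL adjusted p = 0.0341, and 0.111, 0.188, 0.128 and 0.180 without HP347, HP357, HVirB and HVirO). The remaining higher genes were Rxra (0.31), Crocc, Khdrbs3, Tmem254c, Sept9, Ndufa7, Parm1, Tenm4, Mfge8, Zbtb7b, Alox12b, 1700030C12Rik, Mrgpre and Pls3, with log2 fold changes of 0.14 to 0.77.

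The listed chaperone genes had mostly positive fold changes and few calls. Of 26 tested, 25 were positive with a median of 0.20, 2 were called higher and 0 lower. Dnajb5, a DnaJ co-chaperone outside this list, was called lower (log2 fold change -0.48, QL adjusted p = 0.000985). It kept its call without any 1 PP3 or virgin library. Sdf2l1, a component of the endoplasmic reticulum chaperone network, was at 29.2, 19.3 and 20.97 CPM in PP3, against 15.99, 11.4 and 13.4 CPM in virgins. HP353 was the lowest dam and stood above the highest virgin. Its log2 fold change was 0.77 (SE 0.16, QL adjusted p = 0.0288). Calr, the calreticulin gene, was at 497, 367 and 464 CPM in PP3, against 361, 320.1 and 342 CPM in virgins (log2 fold change 0.38, SE 0.086, QL adjusted p = 0.0407), and HP353 lay close to HVirB. Hspa5, the main chaperone of that compartment, had a log2 fold change of 0.56 with a QL adjusted p of 0.134. Its levels were 471, 241 and 346.8 CPM in PP3, against 270.1, 227 and 224 CPM in virgins. The number of chaperones called higher was 11 without HP353 and 0 without each of HP347, HP357, HVirM and HVirO, and 4 with the choroid plexus covariate. The whole list summed to 7097, 5960.3 and 6764 CPM in PP3, against 6178, 5899 and 6039 CPM in virgins, so HP353, with the least choroid plexus, was also the lowest dam for it. The part of choroid plexus in this list was not tested beyond that covariate.

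**Figure D3:**
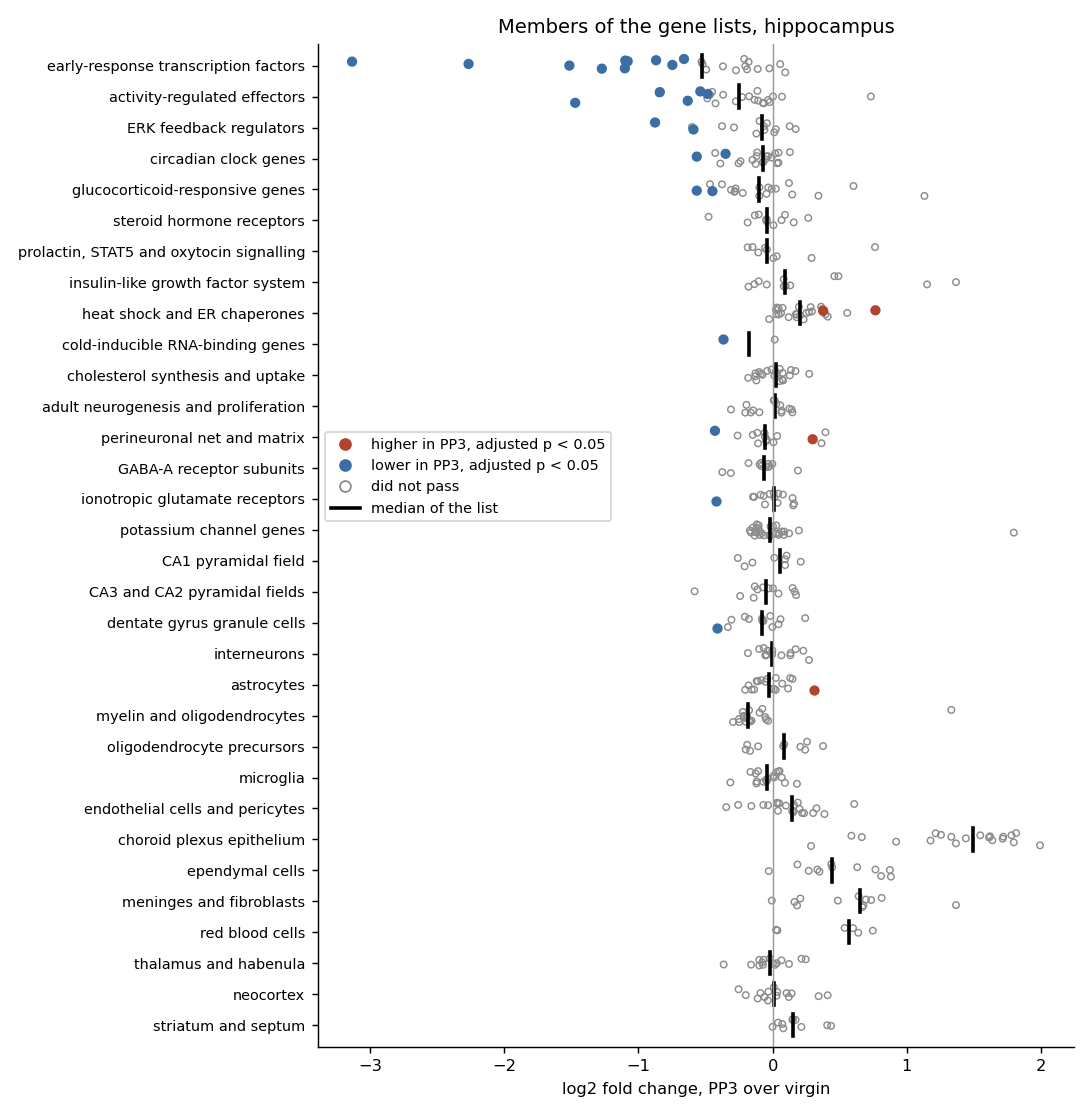
The log2 fold change between PP3 and virgin of each tested member of 32 gene lists, filled where called, with a black bar at the list's median. Early-response factors (median -0.52, 10 of 23 called) and effectors (-0.25, 5 of 24) lie to the left, chaperones (0.20, 2 of 26) slightly to the right, and choroid plexus genes (1.49, 0 of 20) far to the right.

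Hormone and growth factor systems that change in pregnancy and nursing gave 0 calls by the QL test. None of 12 steroid hormone receptor genes, 9 genes of prolactin, STAT5 and oxytocin signalling and 12 genes of the insulin-like growth factor system passed the QL test. In it 6, 1 and 3 of them were at an unadjusted p under 0.05, and the DESeq2 Wald test called 0. Of all 13540 tested genes 1994 were at an unadjusted p under 0.05, the share to set beside these counts and those below. Nr3c1, the glucocorticoid receptor, had a log2 fold change of -0.13, Nr3c2, the mineralocorticoid receptor, -0.19, and Pgr, the progesterone receptor, -0.04. Cish, a target of STAT5, was at 10.98, 3.87 and 8.78 CPM in PP3, against 3.65, 4.87 and 5.65 CPM in virgins (log2 fold change 0.76, QL adjusted p = 0.256), with overlapping groups. Igf2, which choroid plexus and meninges make, was at 409.6, 79.8 and 289 CPM in PP3, against 85.6, 137 and 79.8 CPM in virgins, and was lowest in HP353 of the dams (QL adjusted p = 0.207). Esr1, Esr2, Prlr, Oxt and Igf1 did not pass the FPKM rule, which asks for 1 in every mouse of PP3 or of the virgins, and were not tested. The paper reports that Prlr changed in hippocampus, lowest in virgins and highest at PP10, so its absence here does not show a lack of change. Among lists of cells and channels, 0 were called in cholesterol synthesis (21 tested), neurogenesis (15), GABA-A receptor subunits (12), potassium channels (30), CA1 (8), CA3 and CA2 (12), interneurons (15), oligodendrocyte precursors (10) and microglia (18). Each of these lists had 1 to 4 members at an unadjusted p under 0.05, and the DESeq2 Wald test called 1 CA1 gene and no other. The myelin list had 19 of 20 negative with a median of -0.18 and 0 calls (10 at an unadjusted p under 0.05, 1 called by the DESeq2 Wald test), but 6 were called lower without HP353 and 6 without HVirM, 2 with no FPKM rule and 1 with the choroid plexus covariate. Of this list Mag, a myelin glycoprotein, had the lowest p, at -0.29 (QL adjusted p = 0.0761). In bulk tissue fewer cells of a type and less RNA per cell cannot be told apart. Meningeal genes (median 0.65, 11 of 12 positive), ependymal genes (0.44, 11 of 12) and red blood cell genes (0.57, 6 of 6) were also positive without a call, and the red blood cell list summed to 687.4, 554 and 484 CPM in PP3, against 446, 502 and 507 CPM in virgins.

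The genes called at PP3 were followed through the other stages. Of the 100 genes lower at PP3, 2 were also called lower at PC14, 73 at PC16, 62 at PP1 and 75 at PP10, each against the same 3 virgins, so the comparisons share their controls and these counts are not separate evidence. The share of all tested genes called lower was 0.044% at PC14, 2.75% at PC16, 1.75% at PP1 and 2.43% at PP10. The median log2 fold change of the 100 genes was -0.37 at PP3, beside -0.17 at PC14, -0.30 at PC16 and -0.31 at both PP1 and PP10. The genes were picked by their call at PP3, which favours a larger median at that stage. Of the 21 higher genes, 2 were also called higher at PC14, 7 at PC16, 12 at PP1 and 15 at PP10, and of all tested genes 0.0954%, 1.43%, 0.724% and 1.85% were called higher at these stages. The stages differed widely in their totals, with 19 genes called in either direction at PC14, 571 at PC16, 335 at PP1 and 584 at PP10, so the members' counts give no order of the stages. Egr2 had log2 fold changes of -0.93, -2.75, -1.78, -3.13 and -1.53 from PC14 to PP10, and Fos of -0.78, -2.17, -1.47, -2.26 and -1.36. Arc had -0.59, -1.37, -1.26, -1.47 and -1.34. Malat1 was at 3564 ± 432 CPM in virgins, 3180.5 ± 270.2 CPM at PC14, 2144 ± 159 CPM at PC16, 1980.3 ± 129.5 CPM at PP1, 2279.5 ± 387 CPM at PP3 and 2050.2 ± 201 CPM at PP10 (SD, n = 3). Its level at PC14 was near that of the virgins, and the means of the later stages were lower.

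**Figure D4:**
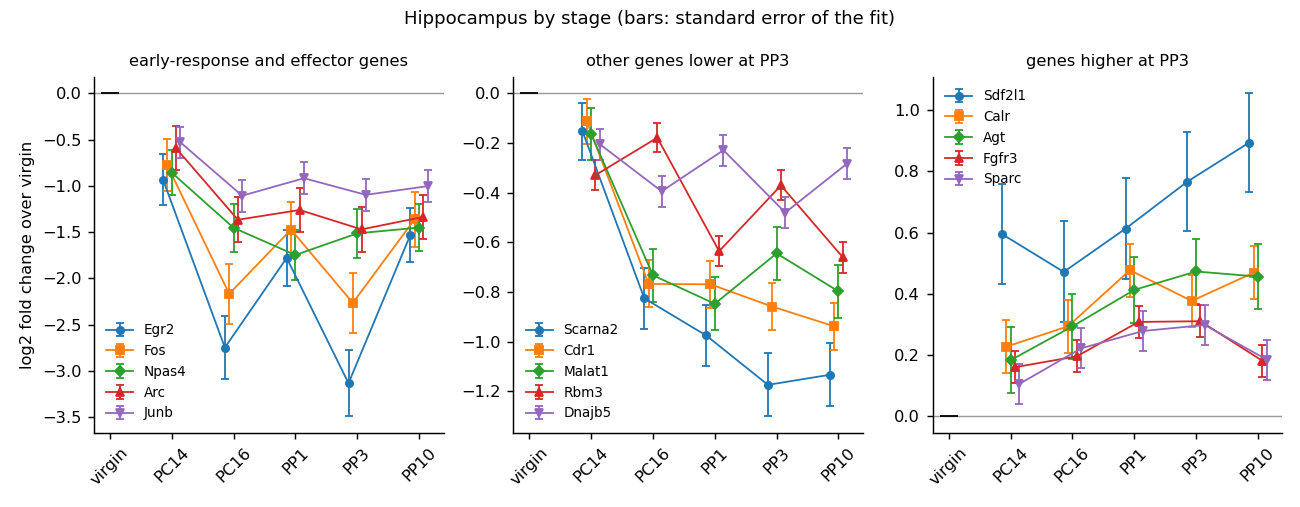
The log2 fold change over virgin, with its SE, of 15 genes in hippocampus at each of the 5 stages of pregnancy and nursing, in time order, in 3 panels of 5 genes. Egr2 and Fos have their lowest values at PP3 (-3.13 and -2.26), and Npas4 at PP1 (-1.75).

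Few genes were called when PP3 was compared directly with the stages on either side. Against PP1, 4 of 13507 genes were called (0.0296%), with 1009 at an unadjusted p under 0.05. Akap5, which anchors kinases and phosphatases at synapses, was at 124, 139 and 155 CPM in PP3, against 94.4, 110.2 and 110.3 CPM in PP1, with a log2 fold change of 0.41 (SE 0.066, QL adjusted p = 0.0285). Rps2, a ribosomal protein gene, was at 34.8, 35.9 and 35.5 CPM in PP3, against 21.9, 24.3 and 23.9 CPM in PP1 (0.60, QL adjusted p = 0.00156), and the pseudogene Rps25-ps1 at 10.1, 12.4 and 12.7 CPM in PP3, against 3.48, 3.34 and 4.29 CPM in PP1 (1.65, QL adjusted p = 2.8e-05). The fourth gene has no symbol and was lower at PP3. Ribosomal genes have many near copies, so their counts are uncertain. Against PP10, 0 of 13627 genes were called by the QL test (0%), with 928 at an unadjusted p under 0.05 and a smallest QL adjusted p of 0.590, and edgeR's exact test and the QL test without the FPKM rule called 4 each. A p that misses the threshold does not show that the stages are alike.

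In neocortex, taken from the same animals, 669 genes were lower (4.82%) and 399 higher (2.87%) in PP3 than in virgins, of 13883 tested. Of the 100 genes lower in hippocampus, 52 were also called lower in neocortex and 84 were negative there, with medians of -0.37 in hippocampus and -0.24 in neocortex. Of the 21 higher genes, 3 were called higher and 16 were positive, with medians of 0.32 and 0.096. Both sets were picked by their call in hippocampus, which favours larger medians there. Members of the early-response lists were called lower in both regions. Of the 23 transcription factors, 10 were called lower in hippocampus and 18 in neocortex, with medians of -0.53 and -1.17, and 19 were more negative in neocortex. The difference of the PP3 change between the regions was called for 50 genes (0.36%), and for 141 with the mouse as a block, since both regions come from the same mice. Without 1 mouse it was 3 (HP347's), 138 (HP353's) and 2 (HP357's) for PP3, and 5, 48 and 3 without virgins B, M and O. Among the transcription factors 1 differed (Nr4a3, at -0.37 in hippocampus and -1.75 in neocortex, QL adjusted p = 0.034, and 0.104 to 0.189 without the mouse of HP347, HP357, HVirB or HVirO) and, with the block, 4. Among the effectors 0 differed, or 3 with the block, although 5 were called lower in hippocampus and 12 in neocortex. A larger count in 1 region is therefore not shown to be a larger change for most members.

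Cdr1 and Scarna2 went opposite ways in the regions. Cdr1 in neocortex was at 109, 110.2 and 97.01 CPM in PP3, against 69.7, 72.7 and 67.6 CPM in virgins, a log2 fold change of 0.59 beside -0.86 in hippocampus. The difference was -1.45 (SE 0.15, QL adjusted p = 1.1e-06). Scarna2 in neocortex was at 5.79, 5.24 and 5.44 CPM in PP3, against 3.81, 1.95 and 2.37 CPM in virgins, a log2 fold change of 1.02 beside -1.18 in hippocampus. The difference was -2.20 (SE 0.25, QL adjusted p = 1.9e-06). In neither gene did the dams overlap the virgins in either region. Both differences passed with the mouse as a block and without each PP3 or virgin mouse. How far mRNA isolation retained the RNA of these 2 loci in each library was not tested. Of the other genes called in hippocampus, Lars2, Pclo, Cadm2, Akap9, Supt16 and 1 gene without a symbol also differed between the regions, and each was more negative in hippocampus. All were picked from genes called lower in hippocampus, which favours that direction. None of these 6 kept its call without the PP3 mouse of HP347 (adjusted p 0.110 to 0.175) or that of HP357 (0.0851 to 0.219), and without the mouse of HP357 Cdr1 and Scarna2 were the 2 genes called.

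**Figure D5:**
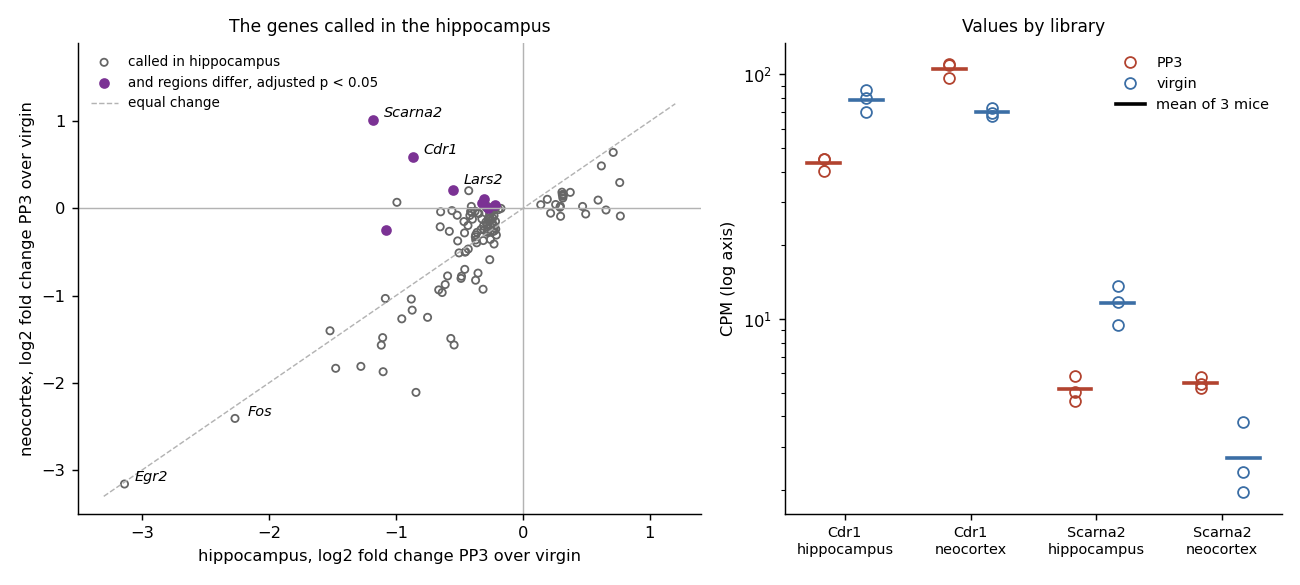
Left, the log2 fold change between PP3 and virgin of the 121 called genes in hippocampus (horizontal) and neocortex (vertical), with genes whose difference between the regions was called in purple. Right, CPM of Cdr1 and Scarna2 by library in both regions, with PP3 libraries left of virgin ones, where Cdr1 in PP3 and virgin neocortex is 109, 110.2 and 97.01 and 69.7, 72.7 and 67.6 CPM.

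As a check on annotation, 94 of the 100 lower genes and 20 of the 21 higher ones are protein-coding, and 62 of the 120 called genes placed in the annotation overlap another gene, 52 on the opposite strand. The lower genes had a median exonic length of 5936 bases, the higher genes 3788 and all tested genes 4346.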

How the data were processed

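Counts and FPKM values were taken from the 18 hippocampus and 18 neocortex libraries of the series. The counts, as deposited, are whole reads per Ensembl gene, not normalized, from the authors' easyRNASeq gene models after Trimmomatic 0.32 and TopHat2 2.0.8 on GRCm38. The FPKM values, as deposited, come from the authors' run of Cufflinks 2.1.1 (effective length not corrected), and 3460 blank hippocampus cells were read as 0. The kit (NEBNext Ultra) does not mark strand. Of 39179 gene IDs, 37607 had a symbol in GENCODE M21.

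All 18 hippocampus libraries entered 1 model in edgeR 4.0.16 under R 4.3.3, in which each stage had a coefficient and TMM scaled the totals, and counts were tested by quasi-likelihood and Benjamini-Hochberg adjustment, calling at 0.05. Genes had to reach an FPKM of 1 in every mouse of a compared stage, and 13932 genes entered the fit. CPM of single genes and of the choroid plexus sum use TMM-scaled totals, and the other list sums use the plain count total. The regional difference was an interaction over 36 libraries, fitted first without and then with the mouse as block. Every replicate pair of PP3 and of virgin differed beyond sampling noise (chi-square per degree of freedom 2.932 to 11.66). The labels make each library 1 animal, since each mouse gave all regions, and mouse deviations correlated between regions at r of 0.0541 to 0.175. Alternatives were DESeq2 1.42.0 (size factors, Wald test), limma 3.58.1 on log2(FPKM + 1), edgeR's exact test, the 6 libraries alone, filterByExpr, no filter, TMM over 72 libraries, a choroid plexus covariate and each library left out. Scripts were tested on simulated data.

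Named genes were the 12 largest fold changes in each direction among called genes (all called genes where under 24), every called list member, the 4 of lowest p and first 4 in each list described, and the 5 lowest adjusted p of the other comparisons. The 32 lists (548 members, 1 unmatched) were written from general knowledge, and members, lists and tests were chosen with earlier results of these data known.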

Additional observations from a re-analysis of the deposited data

Results flagged for a closer look

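Effects that differed between stages or regions by a test of the difference itself are given here as values. PP3 differed from PP1, compared directly, by 1.65 in Rps25-ps1, 0.60 in Rps2, 0.41 in Akap5 and -0.22 in ENSMUSG00000037513, a gene without a symbol in the annotation used (log2 scale, QL test, 4 of 13507 genes called).

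The PP3 change in hippocampus minus that in neocortex was -2.20 in Scarna2, -1.45 in Cdr1, -0.83 in ENSMUSG00000092267, -0.77 in Lars2, -0.74 in Rorb, -0.47 in Atxn1, -0.41 in Akap9, -0.39 in Cadm2, -0.36 in Kcna1, -0.28 in Pclo and -0.26 in Supt16 on the log2 scale. It was 0.50 in Sqle, 0.72 in Slit2, 0.76 in Adamts1 and 1.37 in Nr4a3. Slit2, an axon guidance ligand, was at 0.15 in hippocampus and -0.58 in neocortex. Sqle, an enzyme of cholesterol synthesis, was at 0.12 and -0.38, and Rorb, a layer marker of neocortex, at -0.26 and 0.48. Nr4a3 and Adamts1 were less reduced in hippocampus than in neocortex. Of these, Scarna2 and Cdr1 kept their call without each PP3 or virgin mouse. The causes of these differences were not tested.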

How the results depend on the processing

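The 121 genes called between PP3 and virgin became 221 with the choroid plexus covariate, 322 with no filter, 183 with the DESeq2 Wald test, 29 with the QL test on the 6 libraries and 28 with limma on log2(FPKM + 1), and ranged over 19 to 411 as each library was left out. The 4 genes called between PP3 and PP1 became 8 with the covariate, 13 with no filter, 15 with the exact test, 2 with the QL test on 6 libraries and 9 with DESeq2, and ranged over 2 to 7 without 1 library. Between PP3 and PP10 no filter and the exact test gave 4 each. The cause of these shifts was not tested. With no filter 24599 genes were tested between PP3 and virgin, against 13540 in the main test. On the same 6 libraries alone, edgeR's exact test called 124 genes and the QL test 29. The early-response factors called lower numbered 7 to 12 over these tools, the effectors 2 to 6 and the chaperones called higher 0 to 9. Dst, at -0.19 by the QL test, was at 0.0694 with limma on log2(FPKM + 1) (adjusted p 0.671). Of single-gene values under an alternative, 7512 kept their side of the threshold, 1021 lost it, 89 gained it and 1 changed sign.

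The mouse pairs hippocampus with neocortex. With the mouse as replicate block the 50 genes differing between regions became 141. They became 171 with no filter, and ranged over 2 to 138 without 1 mouse. PP3 and virgin mice share no number, so no pairing of them was possible.

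Depth was 11537125 to 14022299 counts over the hippocampus libraries, and 3 mice a group limit these tests more for small fold changes than for large ones.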
